A study of Mus musculus with 6 samples.

Results

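Complex I, the NADH:ubiquinone oxidoreductase of the inner mitochondrial membrane, was examined through the transcripts of the genes whose symbols begin with Nduf, in primary brown adipocyte cultures, 3 WT and 3 Ucp1-KO. RefSeq rows of the abundance table with such a symbol were taken, and for each gene the row with the highest mean over all 6 of them. This gave 45 genes, of which 38 are listed here as subunits and 7, Ndufaf1 to Ndufaf7, as assembly factors, among 22466 genes with a RefSeq row in the whole table. The rule uses the gene name only, and was set with earlier results of these data known. Ndufa4 and Ndufa4l2 carry a complex I name and are counted with the subunits, although Ndufa4 is now known as a partner of cytochrome c oxidase.

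Complex I takes electrons from NADH, passes them along iron-sulfur clusters to ubiquinone and pumps protons across the inner membrane. Its N module binds and oxidises NADH, its Q module reduces ubiquinone, and its membrane arm carries the proton channels, whose core proteins are encoded by the mitochondrial genome. A small set of core subunits does the chemistry, accessory subunits surround them, and assembly factors help to build the enzyme without staying in it. Brown adipocytes are rich in mitochondria, and Ucp1 lets protons back across their inner membrane so that respiration yields heat.

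The cultures came from male mice 5 to 6 weeks old of the strain labelled 129SvEvS1, 3 labelled wildtype (WT replicates 10, 11 and 12) and 3 labelled UCP1(-/-) (Ucp1-KO replicates 13, 14 and 15). The knockout is carried by the whole animal. Precursor cells of the interscapular brown fat of both genotypes were kept for 2 days in induction medium and 7 days in differentiation medium with insulin, T3 and rosiglitazone, and no adrenergic agonist is named in the labels. The sources do not say whether each culture came from a separate animal, so that p-values measure only the spread between these cultures. Estimated totals of between 14989604 reads (Ucp1-KO replicate 15) and 17727653 reads (WT replicate 12) stand behind the values. Ucp1 stood at 1775, 981 and 1157 RPKM (reads per length of transcript, scaled to the library total) in the WT and at 307, 409 and 398 RPKM in the Ucp1-KO cultures, lower in all 3. The row covers the whole transcript, and the study describes what the knockout still makes as an untranslated remnant without some internal exons, so this row does not check the deleted part. The marker sums spanned 30191 to 32049 RPKM in WT and 31228 to 33448 in Ucp1-KO for 8 adipocyte genes, and 2861 to 3719 RPKM in WT and 2211 to 3214 in Ucp1-KO for 10 brown adipocyte genes, Ucp1 included. Without Ucp1, a choice made after the data were seen, the latter sum was 1880 to 2089 RPKM in WT and 1904 to 2816 in Ucp1-KO. All of these 18 genes were detected. Markers of other cells were also present, at 744 to 1707 RPKM in WT and 631 to 1004 in Ucp1-KO for the stromal list and 59.4 to 179 RPKM in WT and 42.5 to 817 in Ucp1-KO for the macrophage list. At a mean of 0.5 RPKM or more were 9 of 10 stromal genes, all 6 macrophage genes found in the table (the list of 7 symbols names 1 gene by both its old and its new symbol), 4 of 6 endothelial genes and 3 of 9 skeletal muscle genes, while Dlk1, Tek, Vwf, Ckm, Myh1, Myh2, Myh4, Myod1 and Myog were lower. In a culture, fewer cells of a type and less RNA per cell cannot be told apart.

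Most subunit transcripts belonged to the most abundant messages of these cells. Of the 38 subunits, 32 averaged 100 RPKM or more, a level reached by 3.89% of the 16865 RefSeq rows that were tested. The median subunit among the 37 tested stood at 251 RPKM, and the median of all rows tested was 7.39 RPKM. The median assembly factor stood at 20.2 RPKM, so that the median subunit was 12.4 times as abundant. RPKM is a value per length, but a gene's level also differed with the transcript row taken and is counted from uniquely identified reads only, so levels of different genes are compared with that limit.

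**Figure D1:**
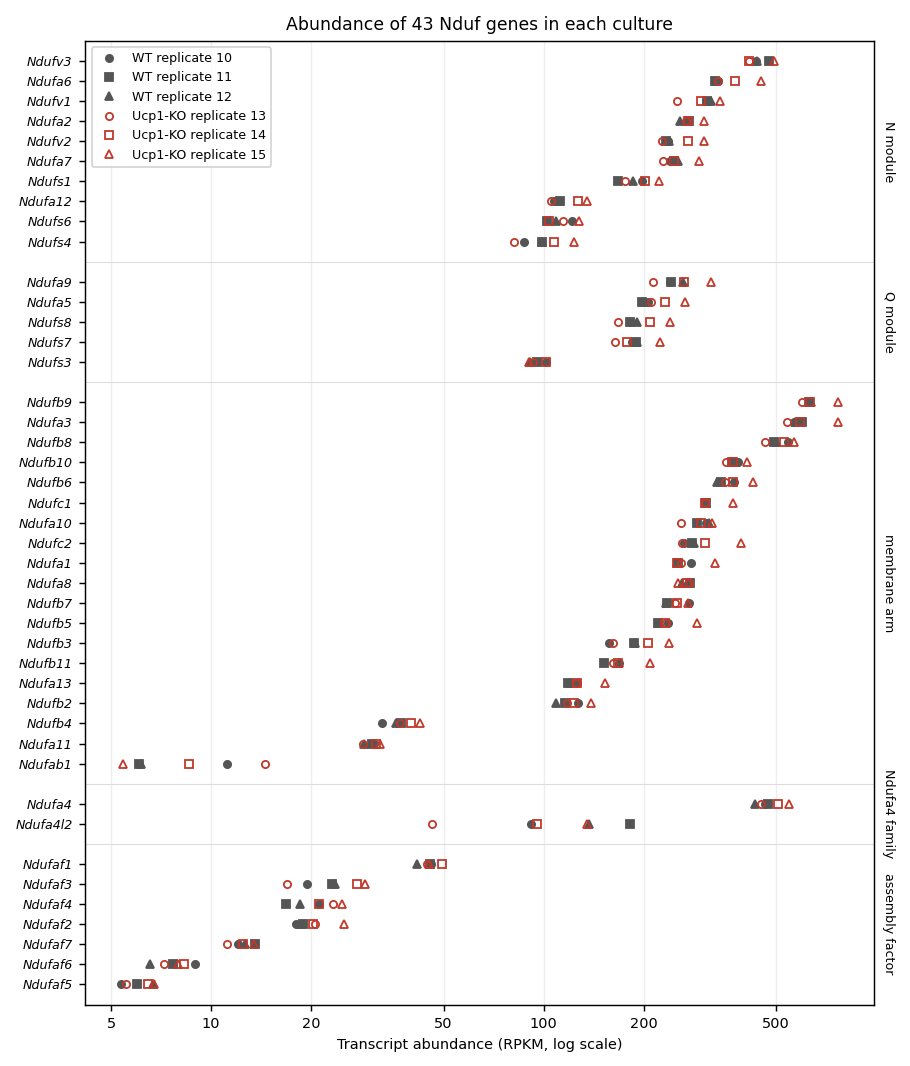
Transcript abundance in RPKM (log axis) of 43 Nduf genes, grouped by module, with 1 point for each of the 3 WT (filled) and 3 Ucp1-KO (open) cultures. Most subunits lie above 100 RPKM, all 7 assembly factors lie below 50 RPKM, and the open triangle of Ucp1-KO replicate 15 is the rightmost point for most genes; Ndufs5, with 0 to 2 reads per culture, is not drawn.

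The highest values belonged to the membrane arm. Ndufb9, an accessory subunit of that arm (chromosome 15, 58933756 to 58939488 of GRCm38), stood at 629, 628 and 637 RPKM in WT and 600, 634 and 767 in Ucp1-KO cultures. Ndufa3, also of the membrane arm, stood at 565, 600 and 571 RPKM in WT and 541, 591 and 770 in Ucp1-KO. Ndufb8, whose protein is often blotted as a sign of assembled complex I, followed at 544, 494 and 499 RPKM in WT and 464, 530 and 568 in Ucp1-KO. In all 3 genes the Ucp1-KO cultures lay on both sides of the WT cultures, with replicate 13 lowest and replicate 15 highest. Ndufa4 (456 ± 20.3 RPKM in WT, SD, n = 3) and the N module subunit Ndufv3 (450 ± 23.4 RPKM in WT) were next in order. Pooled over cultures, the values of each pair of neighbours in this order overlapped. Within each culture, Ndufa3 was above Ndufb8 and Ndufb8 above Ndufa4. The order turned between Ndufb9 and Ndufa3 in Ucp1-KO replicate 15, and between Ndufa4 and Ndufv3 in WT replicates 11 and 12.

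The 6 nuclear-encoded core subunits described here, among them the carriers of the flavin and of iron-sulfur clusters, spanned less than the accessory ones, from 95.6 to 304 RPKM. The N module subunit Ndufv1, which carries the flavin that accepts electrons from NADH, stood at 309, 310 and 318 RPKM in WT and 252, 297 and 338 in Ucp1-KO. Its iron-sulfur partners were lower, at 236 ± 2.81 RPKM (Ndufv2) and 184 ± 15.3 RPKM (Ndufs1) in WT and 267 ± 38.4 and 200 ± 23.1 RPKM in Ucp1-KO. The order of Ndufv1 and Ndufv2 turns with the transcript row, since another row of Ndufv2 stood at 497 RPKM in WT and 561 in Ucp1-KO and the highest row of Ndufv1 at 323 and 306. In the Q module, Ndufs8 (185 ± 5.17 RPKM in WT, 205 ± 35.9 in Ucp1-KO) and Ndufs7 (188 ± 3.06 and 189 ± 31.7), which carry the last iron-sulfur clusters before ubiquinone, had close to the same level. Ndufs3 was lowest of these, at 96.1 ± 5.25 RPKM in WT and 95.02 ± 6.04 in Ucp1-KO. For each of the 6 the cultures of the genotypes overlapped.

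At the low end were Ndufs5 (0.0572 RPKM over the 6 cultures), Ndufab1 (8.64), Ndufa11 (30.3), Ndufb4 (37.6) and Ndufs3 (95.6). Several of these share sequence with other loci, and the deposited values count uniquely identified reads only. Each gene's coding sequence was therefore cut into all windows of 50 bases, the length of the reads, and windows that also occur in a transcript of another gene (GENCODE M21) were counted. For 18 subunits no window was shared, and their median level was 272 RPKM (99.4 to 606). For 14 subunits with some shared windows, under 40%, the median was 245 RPKM (30.3 to 649). For the 6 with at least 40%, Ndufb4 (100%), Ndufab1 (99.8%), Ndufs5 (72.5%), Ndufa12 (69.8%), Ndufb2 (51.1%) and Ndufs3 (47.8%), it was 66.6 RPKM (0.0572 to 122), and 95.6 RPKM over 5 of them without Ndufs5. In Ndufb2 nearly all shared windows belong to genes that overlap it on chromosome 6, Gm42420 (96 windows) and the antisense Gm16272 (37), and 3 to a copy elsewhere. RPKM counts the whole transcript and not the coding part alone. Over whole GENCODE transcripts, some of which differ in length from the RefSeq rows, these 6 genes shared 37.0, 12.3, 41.2, 53.8, 33.5 and 39.7% of windows, in the same order. The highest such share among the other subunits was that of Ndufb6 (34.1%, at 366 RPKM). Over the 38 subunits, level and shared percentage of coding windows had a Spearman rho of -0.487 (-0.443 without Ndufs5). It is given as a description across genes that share the same libraries. The 40% boundary was set after the values were seen, and the part of shared windows in the levels was not tested.

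**Figure D2:**
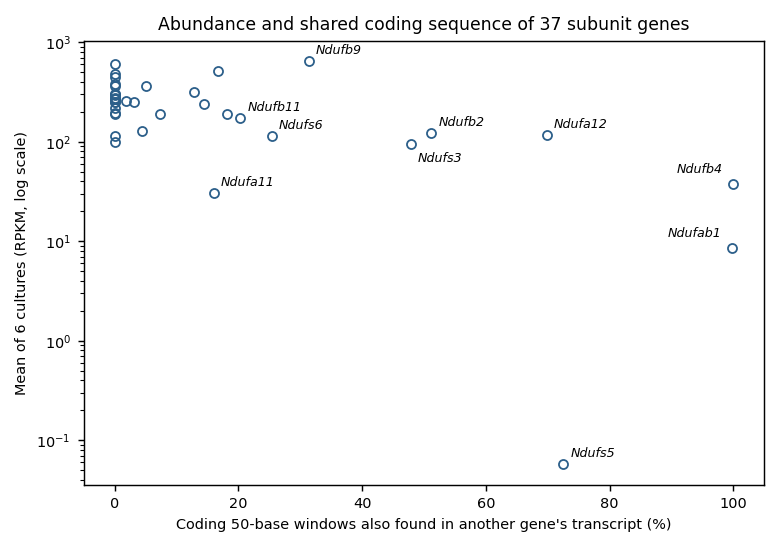
Mean RPKM over the 6 cultures (log axis) of 37 subunit genes against the percentage of their coding 50-base windows found in another gene's transcript. The 6 genes with at least 40% shared windows all lie at or below 122 RPKM, and Ndufs5 stands alone at 0.0572 RPKM.

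Ndufs5, an accessory subunit of the membrane arm (minus strand of chromosome 4, 123712710 to 123718202), is the extreme case. Its RefSeq row held 1, 0 and 0 reads in WT replicates 10 to 12 and 0, 2 and 0 in the 3 Ucp1-KO cultures, under the floor of 3 reads in each, so that it was below the minimum for testing and no fold is given. The processed pseudogene BC002163 (plus strand of chromosome 16, 42955631 to 42955949) aligned to the whole coding sequence of Ndufs5, with 316 of 318 bases identical (99.4%). The stretches below are bases 1 to 150 of both, from the GENCODE M21 transcripts, shown because both substitutions lie in them. Capitals mark the differing bases, which are T81C and A105G, counted from 1 at the first base of the start codon with the Ndufs5 base first.
Ndufs5: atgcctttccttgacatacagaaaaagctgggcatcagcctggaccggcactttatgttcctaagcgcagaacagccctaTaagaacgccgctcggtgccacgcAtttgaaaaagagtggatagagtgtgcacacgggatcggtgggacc
BC002163: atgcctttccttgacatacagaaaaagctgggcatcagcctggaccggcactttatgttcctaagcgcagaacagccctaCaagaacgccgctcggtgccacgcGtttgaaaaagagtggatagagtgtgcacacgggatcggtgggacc
The RefSeq row of BC002163 held 1125, 1080 and 1176 reads in WT and 981, 1066 and 1070 in Ucp1-KO, or 131 ± 1.69 and 129 ± 11.7 RPKM. The part of the shared windows in these read numbers was not tested, and the value of the Ndufs5 row is given as deposited, not as the level of its transcript.

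Copies of other subunits differed in their own values. The pseudogene Gm15920, a copy of the N module subunit Ndufa12, stood at 222 ± 10.9 RPKM in WT and 253 ± 31.5 in Ucp1-KO, above Ndufa12 itself (110 ± 2.36 and 122 ± 15.2 RPKM). Gm12251, which holds 47.4% of the windows of Ndufs3, stood at 90.7 ± 2.16 and 94.9 ± 7.66 RPKM, close to the level of Ndufs3. Gm4459, a copy of the acyl carrier protein gene Ndufab1, stood at 30.9 ± 1.29 and 30.5 ± 4.25 RPKM, above Ndufab1 (7.78 ± 2.90 and 9.51 ± 4.64 RPKM). Ndufb4c, which contains every coding window of the membrane arm subunit Ndufb4, was at or near 0, with 0.154 RPKM in WT replicate 11 and 0 in the other cultures. Levels also differed between the transcript rows of a gene. The RefSeq row of Ndufa11, a membrane arm subunit, has a fitted length of 2661 bases and stood at 30.3 RPKM. Another row of the table for this gene stood at 145 RPKM. In 8 of the 45 members, Ndufs5, Ndufa11, Ndufab1, Ndufa13, Ndufaf5, Ndufv2, Ndufaf4 and Ndufs4, the highest row of any annotation was at least 1.5 times the RefSeq row, and the part of the row and of shared windows was not tested.

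Ndufv3 has 2 RefSeq rows that differ by an added internal stretch. The row with a fitted length of 488 bases stood at 450 ± 23.4 RPKM in WT and 441 ± 45.8 in Ucp1-KO. The row with a fitted length of 1580 bases stood at 224 ± 11.6 and 224 ± 30.8 RPKM. The reads that the longer row holds beyond the shorter, over the 1092 additional bases, corresponded to 111, 124 and 132 RPKM in WT and 96.2, 133 and 150 in Ucp1-KO. That was 25.6, 26.1 and 30.0% of the shorter row's level in WT and 23.2, 32.2 and 30.3% in Ucp1-KO, so the genotypes overlapped and the additional stretch was covered at a lower level than the shorter transcript in all 6 cultures. The shorter row's reads were counted within the longer one in this calculation, which the table itself does not state.

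No Nduf gene passed the adjusted threshold between the genotypes, but neither did Ucp1 itself. The comparison, which asks whether loss of Ucp1 changed the complex I transcripts, was made with limma on log2(RPKM + 1) over the 16865 rows averaging 0.5 RPKM or more, and positive log2 fold changes mean higher in Ucp1-KO. Of the 44 Nduf genes tested, 0 had a Benjamini-Hochberg adjusted p under 0.05, as did 0% of all rows, and the lowest adjusted p among them was 0.868. Ucp1, at 28.4% of the WT mean, had an unadjusted p of 0.000157 and the same adjusted p of 0.868. With no minimum abundance 22 rows passed the adjusted threshold, with 0 Nduf genes and not Ucp1 among them, so that the lack of calls after adjustment does not show that complex I transcripts were alike in both genotypes. At an unadjusted p under 0.05 there was 1 Nduf gene, higher in Ucp1-KO, where 5.54% of all rows passed (2.3% higher and 3.24% lower). The share of the members, 1 of 44, was thus not above the background. An exact permutation test of 3 against 3 cultures cannot give a p below 0.1. The authors' own comparison, made with DESeq2, did list Ucp1 as differential. They reported no difference in transcripts tied to the mass or function of mitochondria.

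**Figure D3:**
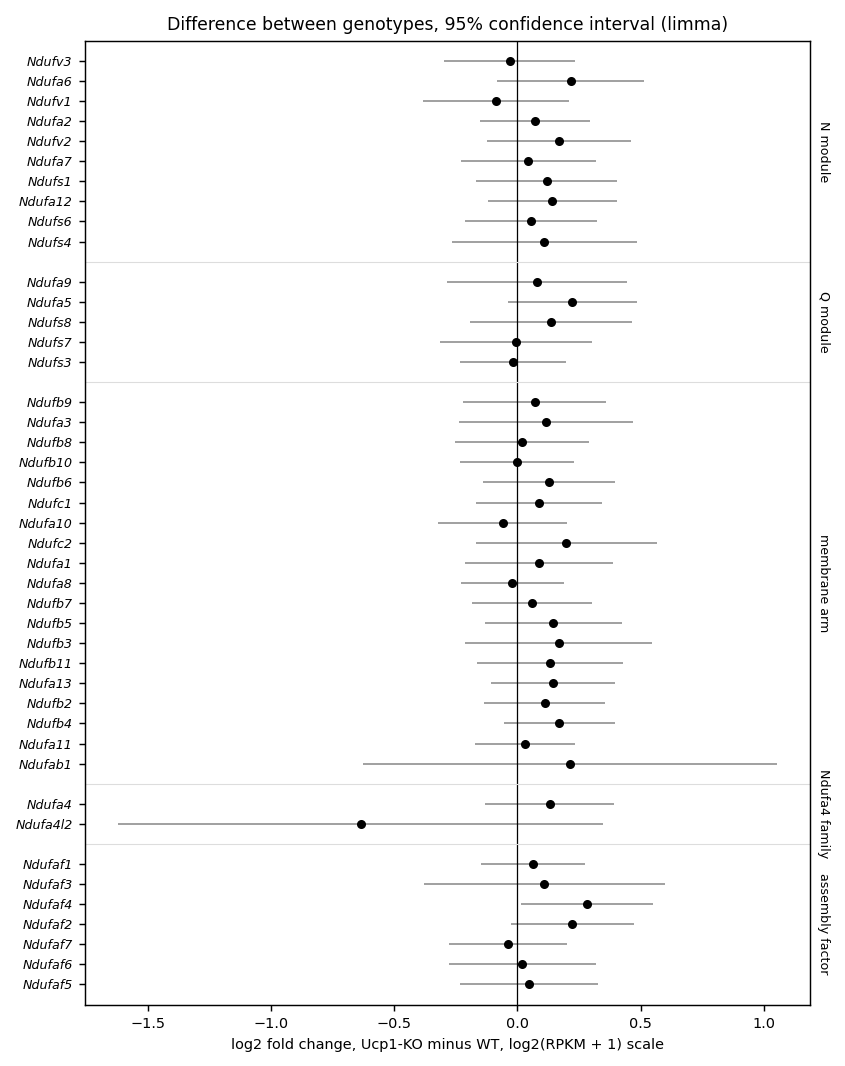
log2 fold change (Ucp1-KO minus WT, on the log2(RPKM + 1) scale) of 43 Nduf genes with limma's 95% confidence interval, grouped by module. Most points lie slightly right of 0, all intervals but that of Ndufaf4 include 0, and Ndufa4l2 and Ndufab1 have the widest intervals.

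The gene at p under 0.05 was Ndufaf4, an assembly factor needed early in building the Q module side of the enzyme (plus strand of chromosome 4, 24898083 to 24905001). It stood at 21.2, 16.8 and 18.5 RPKM in WT and 23.2, 21.1 and 24.8 in Ucp1-KO. WT replicate 10 lay within the range of the Ucp1-KO cultures, so the genotypes overlapped. The log2 fold change was 0.28 (SE 0.11, 95% interval 0.01 to 0.55), with an unadjusted p of 0.042, an adjusted p of 0.868 and a two-sided exact permutation p of 0.2. The log2 fold change stayed between 0.21 and 0.37 when any 1 culture was left out. The unadjusted p was 0.071 with median-of-ratios scaling of all 6 cultures. It was 0.016 without WT replicate 10 and 0.043 without Ucp1-KO replicate 14. Without WT replicate 11 it was 0.138, without WT replicate 12 it was 0.107, without Ucp1-KO replicate 13 it was 0.083 and without Ucp1-KO replicate 15 it was 0.112.

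In 3 genes all Ucp1-KO cultures lay above all WT cultures, which 6.04% of all rows did, and in 0 they all lay below (5.15% of all rows). Ndufa5, a Q module accessory subunit, stood at 206, 197 and 200 RPKM in WT and 210, 231 and 267 in Ucp1-KO (log2 fold change 0.22, SE 0.11, p = 0.084 before adjustment, exact permutation p = 0.1). Ndufa6, an N module accessory subunit, stood at 335, 327 and 331 RPKM in WT and 335, 377 and 450 in Ucp1-KO, with replicates 10 and 13 at almost the same value (log2 fold change 0.22, SE 0.13, p = 0.132 before adjustment, exact permutation p = 0.1). Ndufaf2, an assembly factor that acts late, on the way to the complete enzyme, stood at 18.0, 18.9 and 18.7 RPKM in WT and 20.5, 20.2 and 25.0 in Ucp1-KO (log2 fold change 0.22, SE 0.11, p = 0.072 before adjustment, exact permutation p = 0.1). Ndufb4, the remaining gene among the 5 smallest p-values in this direction, stood at 35.3 ± 2.43 RPKM in WT and 39.9 ± 2.76 in Ucp1-KO, and its cultures overlapped (log2 fold change 0.17, SE 0.09, p = 0.116 before adjustment, exact permutation p = 0.2). The 3 of 44 without overlap were close to the background share, and none of them passed the adjusted threshold. Without Ucp1-KO replicate 15 the log2 fold changes of Ndufa5, Ndufa6 and Ndufaf2 were 0.13, 0.10 and 0.13. Without Ucp1-KO replicate 13 they were 0.30, 0.32 and 0.27.

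Small positive values were nevertheless common. Of the 44 genes, 35 had a fitted log2 fold change above 0, where 49.6% of all rows did, and 9 had one below. The median was 0.09 over the 37 subunits, 0.06 over the assembly factors and -0.0016 over all rows tested. Within the subunits the median was 0.09 for the N module (10 genes), 0.06 for the Q module (6 genes) and 0.11 for the membrane arm (19 genes). The genes share their cultures and are not independent, so these counts are a description. The 5 genes with the smallest p among those with a negative value were Ndufa4l2, Ndufv1 (-0.09, SE 0.12), Ndufa10 (-0.06, SE 0.11), the assembly factor Ndufaf7 (-0.04, SE 0.10) and Ndufv3 (-0.03, SE 0.11).

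The positive values rested largely on 1 culture. Ucp1-KO replicate 15 had the highest value of the 6 cultures in 36 of the 44 genes (81.8%), and in 10 of 10 genes of the N module. Among the 656 RefSeq rows averaging 100 RPKM or more it was highest in 25.6%. Relative to the mean of the WT cultures, the median subunit deviated by 0.02, -0.01 and -0.0013 (log2) in WT replicates 10, 11 and 12 and by -0.06, 0.06 and 0.27 in Ucp1-KO replicates 13, 14 and 15, while the median of all rows tested deviated by -0.01 in replicate 15. Ucp1-KO replicate 13 was at the other end and had the lowest value in 19 of 44 genes (43.2%), against 27.3% of the 656 abundant rows and 41.9% of the subunits of complexes II to V tested. The 3 WT cultures thus stood close together and the 3 Ucp1-KO cultures apart from each other.

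**Figure D4:**
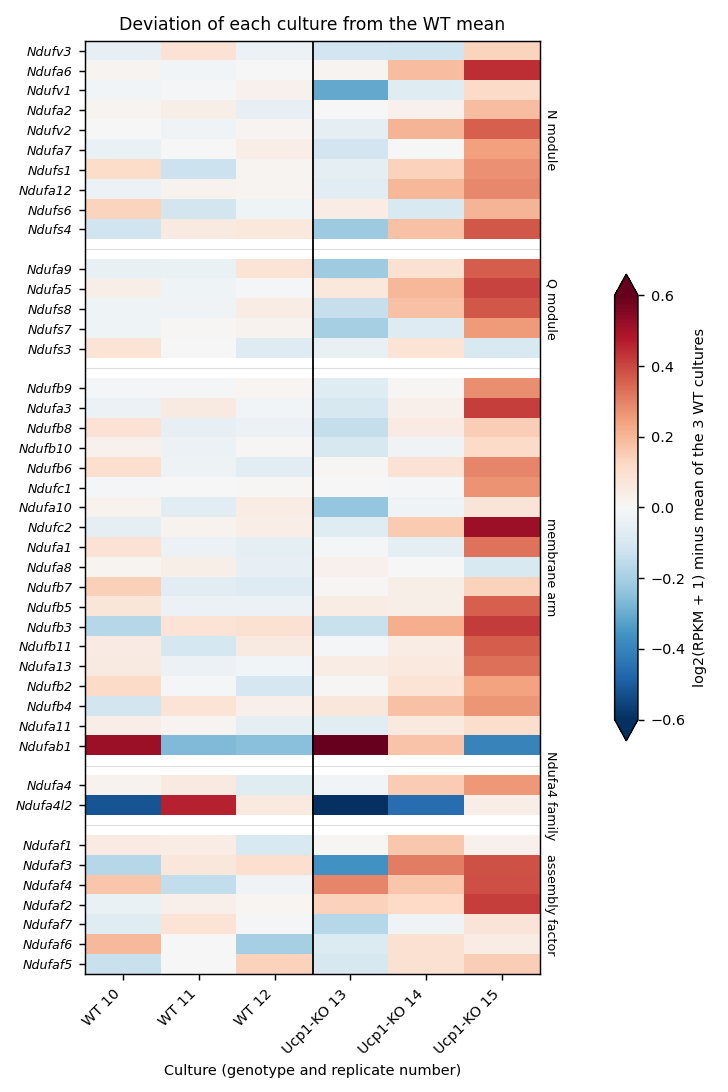
Deviation of each culture from the mean of the 3 WT cultures, on the log2(RPKM + 1) scale, for 43 Nduf genes by module (colour, red above and blue below the WT mean). The column of Ucp1-KO replicate 15 is red in nearly all rows, the column of replicate 13 is mostly pale blue, and Ndufa8, Ndufab1 and Ndufs3 are blue in replicate 15.

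In summed RPKM the 37 subunits tested reached 9207, 9156 and 9103 in WT and 8625, 9449 and 10944 in Ucp1-KO. The WT mean was 9156 ± 52.0 and the Ucp1-KO mean 9672 ± 1175 (SD, n = 3), so the SD was wider in Ucp1-KO and the WT cultures lay within the Ucp1-KO range. Without Ucp1-KO replicate 15, 24 of the 44 genes had a log2 fold change above 0 and 20 below, and the median over the subunits was 0.02. Without Ucp1-KO replicate 13 the counts were 40 and 4, the median was 0.14, and 8 genes had an unadjusted p under 0.05, as did 9.15% of all rows, with 0 genes past the adjusted threshold. Replicate 15 also had the lowest stromal (631 RPKM) and macrophage (42.5 RPKM) marker sums, the highest adipocyte marker sum (33448 RPKM) and the fewest reads of the 6 cultures, and the highest brown adipocyte sum when Ucp1 was left out (2816 RPKM). The brown adipocyte sum with Ucp1 was lowest in replicate 13 (2211 RPKM), but without Ucp1 it was lowest in WT replicate 11 (1880 RPKM). The part of these in the complex I values was not tested.

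Across the 6 cultures most subunits varied together. For 33 of the 37 subunits, Pearson's r with the mean of the other subunits was at least 0.5, with a median of 0.88 over all 37 (Ndufb9 highest at 0.97). This is a description of 6 libraries in which replicate 15 weighs heavily. The share of all rows tested with such an r was not computed, so 33 of 37 has no background beside it. Ndufa8, a membrane arm subunit of the intermembrane space face, ran the other way (r = -0.77) and stood at 273, 276 and 260 RPKM in WT and 274, 270 and 253 in Ucp1-KO. It was lowest in replicate 15 but had the smallest spread of these exceptions, a coefficient of variation of 3.41%. Ndufab1 (r = -0.68) stood at 11.1, 6.07 and 6.13 RPKM in WT and 14.6, 8.56 and 5.42 in Ucp1-KO, on 65 to 188 reads. Ndufs3 had an r of -0.25 and Ndufa4l2 of 0.28.

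Ndufa4l2, a paralog of Ndufa4 known as a target of hypoxia signalling, had by far the widest spread of the abundant members. It stood at 91.5, 181 and 137 RPKM in WT and 46.1, 95.6 and 135 in Ucp1-KO, a coefficient of variation of 40.9% against 8.58% for Ndufa4. The cultures of the genotypes overlapped (log2 fold change -0.64, SE 0.41, p = 0.169 before adjustment, exact permutation p = 0.4). Ndufa4 stood at 462, 473 and 433 RPKM in WT and 451, 506 and 546 in Ucp1-KO (log2 fold change 0.13, SE 0.11), so that in each culture Ndufa4 was the more abundant of the pair. Ndufa4l2 was highest in WT replicate 11, the culture in which the stromal marker sum was also highest (1707 RPKM). It was lowest in Ucp1-KO replicate 13, where that sum was 1004 RPKM. The endothelial marker sum was also highest in WT replicate 11 (29.7 RPKM), but lowest in WT replicate 10 (2.47 RPKM). The part of other cells in Ndufa4l2 was not tested. Its log2 fold change was -0.97 without Ucp1-KO replicate 15 (unadjusted p = 0.046, where 5.18% of all rows passed), -0.41 without WT replicate 11 and -0.21 without Ucp1-KO replicate 13 (unadjusted p = 0.514), so its size rested on single cultures.

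**Figure D5:**
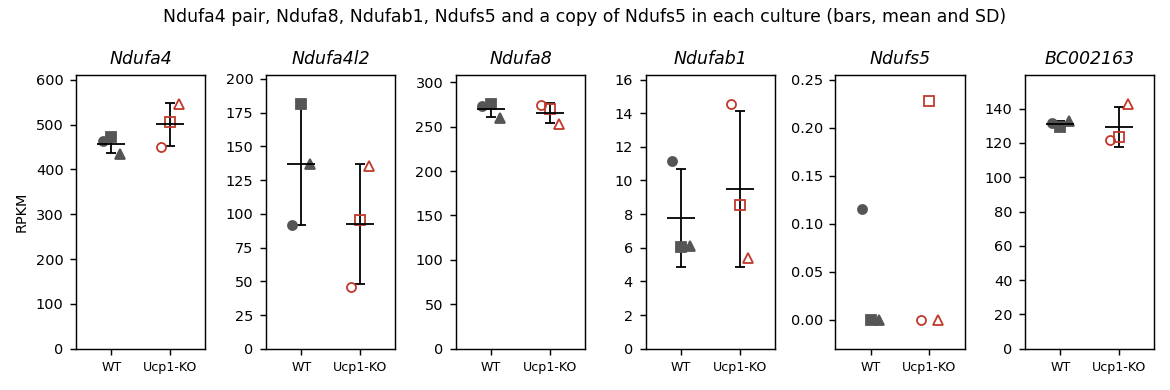
RPKM in each culture (points, WT filled and Ucp1-KO open, with mean and SD except for Ndufs5) of Ndufa4, Ndufa4l2, Ndufa8, Ndufab1, Ndufs5 and the Ndufs5 copy BC002163, each on its own linear axis. Ndufa4l2 and Ndufab1 vary widely within both genotypes, and Ndufs5 stays near 0 while BC002163 stands near 130 RPKM.

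The remaining assembly factors lay between 6.12 and 45.4 RPKM. Ndufaf1, which works on the membrane arm early in assembly, was the most abundant at 44.4 ± 2.42 RPKM in WT and 46.4 ± 2.81 in Ucp1-KO. Ndufaf3, the partner of Ndufaf4, stood at 19.4, 23.1 and 23.6 RPKM in WT and 16.9, 27.5 and 28.9 in Ucp1-KO, so that its Ucp1-KO values enclosed the WT values while those of Ndufaf4 lay mostly above. Ndufaf7, a methyltransferase that acts in assembly, stood at 12.7 ± 0.729 RPKM in WT and 12.4 ± 1.15 in Ucp1-KO. Ndufaf6 (7.73 ± 1.18 and 7.81 ± 0.539 RPKM) and Ndufaf5 (6.01 ± 0.666 and 6.23 ± 0.629 RPKM), which modifies Ndufs7, were lowest. Replicate 15 was highest in 4 of the 7 assembly factors.

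Of 13 symbols listed for complex I assembly factors without an Nduf name, 10 were found in the table and tested, 7 with a log2 fold change above 0, 3 below, and a median of 0.05, which was -0.03 without Ucp1-KO replicate 15, 0.0095 without replicate 14 and 0.14 without replicate 13. Tmem186, a membrane protein of the assembly complex for the proton-pumping arm, stood at 16.2, 13.4 and 14.2 RPKM in WT and 18.6, 18.5 and 17.7 in Ucp1-KO, without overlap (log2 fold change 0.31, SE 0.10, unadjusted p = 0.016, adjusted p = 0.868). It was highest in replicate 13, unlike most Nduf genes. Timmdc1, of the same assembly complex, stood at 28.0, 27.0 and 26.7 RPKM in WT and 24.7, 24.8 and 25.7 in Ucp1-KO, lower without overlap (log2 fold change -0.11, SE 0.08, unadjusted p = 0.183). The signs of the pair were opposite, and 0 of the 10 passed the adjusted threshold. Of all rows tested, 6.04% were higher and 5.15% lower without overlap, and 5.54% had an unadjusted limma p under 0.05. The pair was chosen after its values were seen.

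The membrane arm's core proteins come from the mitochondrial genome. The rows were matched by transcript identifier, since the table labels the row of mt-Nd4 with another gene's symbol, and they lie outside the limma fit. The mt-Nd1 transcript stood at 12136, 9510 and 10719 RPKM in WT and 11919, 7406 and 10744 in Ucp1-KO, many times the level of any nuclear subunit. The others with reads in every culture, with WT and Ucp1-KO means, were mt-Nd2 (6555 and 6092 RPKM), mt-Nd4 (4029 and 3497), mt-Nd5 (4548 and 3877) and mt-Nd6 (6426 ± 850 and 5149 ± 972, exact permutation p = 0.2). For all 5 the cultures of the genotypes overlapped and Ucp1-KO replicate 14 was lowest, the culture with the highest macrophage marker sum (817 RPKM). The median log2 difference over these 5 was -0.24, opposite in sign to that of the nuclear subunits, and without replicate 14 it was 0.02. The macrophage marker sum was 166 RPKM in Ucp1-KO replicate 13 and 42.5 RPKM in replicate 15, and the part of macrophages in these values was not tested. mt-Nd3 and mt-Nd4l were listed at or below 0.337 RPKM. The library kit does not mark strand, so reads of mt-Nd6, which lies on the opposite strand to the other genes here, cannot be told apart from antisense reads.

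The subunits of complexes II to V, the parts of the respiratory chain most like complex I, had a median nearer to 0. Of 47 such genes 43 were tested, 27 had a log2 fold change above 0 and 16 below, and the median was 0.05. Ucp1-KO replicate 15 was highest in 53.5% of them, against 86.5% of the Nduf subunits. Their median deviation in replicate 15 was 0.15, against 0.27 for the Nduf subunits, and without this culture their median log2 fold change was -0.03. The difference between the complexes was not tested, because the genes share the cultures.

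The promoters of complex I genes are known for sites of the factors NRF-1, GABP, YY1 and ERR, which bring mitochondrial genes under common control. The 250 bases before the RefSeq start were found for 39 of the 45 members and were searched on both strands for exact matches. The NRF-1 motif, GCGCA and GCGC with any 1 base between them, was found in 7 of the 39 (17.9%), namely Ndufa5, Ndufa8, Ndufa11, Ndufb4, Ndufs5, Ndufs6 and Ndufaf4, and in 4.23% of 27025 genes and 9.57% of the 9747 of these that were tested for expression. The YY1 motif AANATGGCG was found in 2 members, Ndufa7 and Ndufb11 (5.13%, against 1.29% of all genes and 2.51% of those tested). The GABP motif CCGGAAGT and the ERR motif TCAAGGTCA were found in 0 members, in 3.23% and 0.422% of all genes and in 6.83% and 0.298% of those tested. The windows of Ndufaf4, the gene with the smallest p, and of Ndufa11, both on GRCm38.p6 from RefSeq, are shown 5′ to 3′ with the NRF-1 match in capitals.
Ndufaf4, chr4:24897833-24898082, plus strand: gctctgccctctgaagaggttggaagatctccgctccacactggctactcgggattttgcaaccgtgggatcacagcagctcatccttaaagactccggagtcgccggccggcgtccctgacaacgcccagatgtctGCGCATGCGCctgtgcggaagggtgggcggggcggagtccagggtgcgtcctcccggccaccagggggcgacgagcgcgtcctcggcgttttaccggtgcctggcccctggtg
Ndufa11, chr17:56717512-56717761, plus strand: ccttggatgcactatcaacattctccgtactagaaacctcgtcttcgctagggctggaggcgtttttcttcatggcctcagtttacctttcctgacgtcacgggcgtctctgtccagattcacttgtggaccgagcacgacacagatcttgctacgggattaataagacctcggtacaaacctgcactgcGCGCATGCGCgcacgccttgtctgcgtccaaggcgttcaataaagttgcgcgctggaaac
A match is a run of letters and not a bound site. Of the members with an NRF-1 match, Ndufa5, Ndufa11, Ndufb4, Ndufs6 and Ndufaf4 were highest in Ucp1-KO replicate 15, and Ndufa8 was lowest in it. Ndufs5 had too few reads to be tested. Over all 44 Nduf genes tested, 81.8% were highest in that culture. A link of the motif to this culture was not tested.

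Of 11 regulators of mitochondrial genes, 0 passed the adjusted threshold. Nrf1, the gene of NRF-1, had a log2 fold change of -0.02 (SE 0.15), and Gabpa, the DNA-binding subunit of GABP, one of 0.04 (SE 0.10). Ppargc1a, the coactivator that drives mitochondrial biogenesis in brown fat, stood at 15.5, 7.12 and 10.5 RPKM in WT and 14.7, 11.8 and 15.99 in Ucp1-KO (log2 fold change 0.38, SE 0.26). Its relative Ppargc1b was highest in replicate 15, at 21.0 RPKM against 10.1 to 15.96 RPKM in WT. Replicates 13 and 14, at 14.1 and 15.2 RPKM, lay within the WT range (log2 fold change 0.30, SE 0.21). The 11 genes had a median of 0.04, and replicate 15 was highest in 6.

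The 5 genes outside the Nduf list whose log2 values followed the mean of the subunits most closely over the 6 cultures were Rpa3 (Pearson's r 0.995), Doc2g (0.994), Macrod2 (0.992), Pet100 (0.990) and Tmem206 (0.989). Pet100, an assembly factor of cytochrome c oxidase, stood at 14.8, 14.6 and 14.9 RPKM in WT and 13.2, 15.3 and 19.96 in Ucp1-KO. Rpa3 and Tmem206 had the same order of the Ucp1-KO cultures, with replicate 13 lowest and replicate 15 highest. Doc2g and Macrod2 stood near 1 RPKM, on 10 to 55 reads per culture. They were picked as the closest among all rows tested, over 6 points, and their likeness is a description.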

How the data were processed

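RNA of 3 WT and 3 Ucp1-KO cultures was sequenced as single 50-base reads. The deposited values are RPKM per transcript, for which the authors used NCBI build 38 of the mouse and left out reads without a unique assignment. The authors' own comparison used DESeq2 1.4.5. The table has 168326 rows, of which the 28890 RefSeq rows with identifiers of coding or non-coding transcripts were used. Library totals were estimated from rows with a GENCODE M21 transcript length, as the totals that turned low values into whole reads. For each RefSeq row the shortest length that made all its values whole reads, within 0.1 at most, was then taken. Such a length was found for 16865 of 16865 rows tested. Because the length was free, this does not check the reads. Read numbers of RefSeq rows and the stated lengths of the Ndufa11 and Ndufv3 rows come from this fit. Reads are not independent molecules, so the floor of 3 reads covers counting error only.

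Rows with a mean of at least 0.5 RPKM (12259 genes) entered limma 3.58.1 (R 4.3.3), with log2(RPKM + 1) as the response, genotype as the single term and an empirical Bayes variance that follows intensity, with p-values adjusted by the Benjamini-Hochberg method over all rows. The added 1 RPKM makes fold changes of rare transcripts smaller. For single genes an exact permutation test (two-sided) is given as well. The script was tested on simulated data with known changes in the more abundant rows, of which it called most but not all. Alternatives were a constant of 0.1, no minimum, summed rows per gene, median-of-ratios scaling, limma-voom on the recovered reads, leaving out each culture and, added after the data were seen, the highest row of any annotation. Python 3.11.15 was used for the rest, and coordinates are from GENCODE M21 and RefSeq on GRCm38.

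The members and lists were chosen with earlier results of these data known. Named genes are the core subunits, the 5 highest and 5 lowest subunits, all assembly factors, the 5 smallest p-values in each direction, copies and the Ndufa4 pair, genes without overlap, the mitochondrially encoded genes and the 5 closest in pattern. Copies of other subunits, Tmem186, Timmdc1, Ndufa8 and the named regulators were chosen after their values were seen. The values of 1 gene that this rule names are not reported here, although it entered the counts, medians and sums.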

Additional observations from a re-analysis of the deposited data

How the results depend on the processing

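No paired analysis was possible because WT and Ucp1-KO cultures carry different replicate numbers. No Nduf gene passed the adjusted threshold in any alternative fit, and neither did Ucp1 (adjusted p between 0.376 and 0.999 over these fits), so this says nothing about stability. With the highest row of any annotation, medians but no calls were computed. The 1 gene at an unadjusted p under 0.05 became 0 with median-of-ratios scaling, and between 0 and 8 when a culture was left out. Leaving out cultures gave medians (log2) between 0.015 (without Ucp1-KO replicate 15) and 0.14 (without Ucp1-KO replicate 13) for the subunits, 0.0064 and 0.12 for the assembly factors, -0.03 and 0.14 for the other assembly factors, -0.41 and 0.015 for the mitochondrially encoded genes, and -0.033 and 0.097 for complexes II to V. The summed subunits were 98.7 to 111% of the WT mean, against 106% with all cultures. In 14 of the 25 named genes tested the sign of the log2 fold change turned when some culture was left out, with ranges of -0.13 to 0.025 for Ndufa10, -0.0034 to 0.080 for Ndufa11, -0.033 to 0.22 for Ndufa3, -0.12 to 0.52 for Ndufab1, -0.027 to 0.34 for Ndufaf3, -0.020 to 0.12 for Ndufaf5, -0.080 to 0.12 for Ndufaf6, -0.097 to 0.027 for Ndufaf7, -0.046 to 0.099 for Ndufb8, -0.034 to 0.14 for Ndufb9, -0.067 to 0.023 for Ndufs3, -0.14 to 0.089 for Ndufs7, -0.19 to 0.022 for Ndufv1, -0.12 to 0.011 for Ndufv3. Ndufs7 also turned with median-of-ratios scaling (0.0056) and limma-voom on recovered reads (0.023), and Ndufs3 with the latter (0.011). The cause was not tested. Ndufs5, with 0 to 2 reads a culture, was not tested, and 3 cultures a genotype limit the other genes.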
